A study of Homo sapiens with 4 samples.

Results

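The genes examined here encode the histone H2AX and the proteins that write, read and relay its phosphorylation at damaged DNA. They are 10 of 19970 protein-coding genes on chromosomes 1 to 22 and X: H2AX, ATM, ATR, MDC1, RNF8, RNF168, TP53BP1, RPA1, CHEK1 and CHEK2. They were chosen by function, and each was given a window of its annotated extent in hg38 plus 5 kb either side. Peaks of phosphorylated H2AX (γH2AX) came from chromatin immunoprecipitation and sequencing of SK-UT-1, an established line grown from a uterine leiomyosarcoma, that is, a smooth muscle cancer. There were 4 conditions. The combination held OTS186935 at 1 µM and doxorubicin at 0.5 µM, each drug was also given alone at that dose, and the vehicle was DMSO at 0.1%. OTS186935 inhibits the histone methyltransferase SUV39H2, and doxorubicin poisons topoisomerase II. A PARP inhibitor is named in the title of the series, whereas the treatment labels of these libraries give doxorubicin as the partner of OTS186935 and no PARP inhibitor. The length of exposure is not given in the labels. Each condition had 1 library, which leaves no replicates for a test, and the values are set side by side. A list of γH2AX peaks does not show which genes are expressed, so the labelled cell type could not be checked against its markers.

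Around a DNA break, the kinases ATM and ATR phosphorylate H2AX near its C-terminal end. MDC1 binds the phosphorylated tail and brings in the ubiquitin ligase RNF8, whose work is carried on by RNF168, and the ubiquitin mark is read by 53BP1, the product of TP53BP1. RPA, of which RPA1 encodes the large subunit, coats single-stranded DNA and calls ATR, while CHEK1 and CHEK2 encode the kinases that pass the signal to the cell cycle. What was measured here is the mark on the chromatin of these genes themselves, not the activity of their proteins.

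Across the 4 libraries, the windows held 58 peaks, and each of the 10 genes had a peak in at least 1 library. There were 4 peaks with the combination, 17 with OTS186935, 13 with doxorubicin and 24 with DMSO. All 4 peaks of the combination lay at ATR, RNF168 and RNF8. Genes with a peak numbered 3 of 10 with the combination, 8 of 10 with OTS186935, 6 of 10 with doxorubicin and 8 of 10 with DMSO. Of all protein-coding genes, 50.5%, 71.7%, 65.1% and 78.3% had a peak in the same kind of window, in that order of libraries. The share with OTS186935, doxorubicin and DMSO was near that background, and with the combination it was below it. That gap rests on few genes and was not tested. The windows of the 10 genes were longer than most, with a median of 65.0 kb against 34.2 kb over all genes, and a longer window has more room for a peak.

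**Figure D1:**
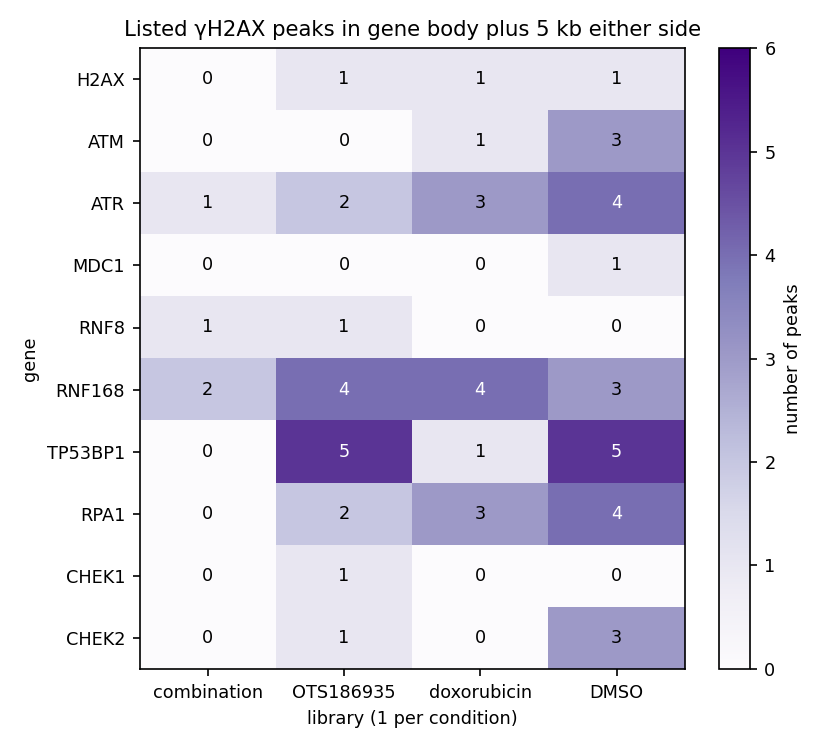
Number of listed γH2AX peaks in the window of each gene (gene body plus 5 kb either side; rows) in each library (columns, 1 library per condition). With the combination 3 genes have a peak, RNF168 having 2 and ATR and RNF8 having 1 each, while TP53BP1 has 5 with OTS186935 and 5 with DMSO.

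Per length, the windows of the 10 genes held 5.28 peaks per Mb with the combination, where the windows of all genes held 13.0 per Mb. The same densities were 22.4 and 28.0 per Mb with OTS186935, 17.1 and 21.6 with doxorubicin, and 31.7 and 35.3 with DMSO. With the lists as deposited, the 10 genes had a lower density than all genes in each library, with the widest ratio in the combination. The whole lists differ in length, and with lists cut to an equal 29561 peaks by −log10 p the order turned round for DMSO. In peaks per Mb, the 10 genes and all genes then had 5.28 and 13.0 with the combination, 11.9 and 13.0 with OTS186935, 11.9 and 13.1 with doxorubicin, and 14.5 and 13.3 with DMSO. In these cut lists the 10 genes held 4 peaks with the combination, 9 with OTS186935, 9 with doxorubicin and 11 with DMSO. The genes with a peak were then 3, 7, 5 and 5 of 10, against 50.5%, 48.7%, 50.1% and 49.4% of all genes.

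**Figure D2:**
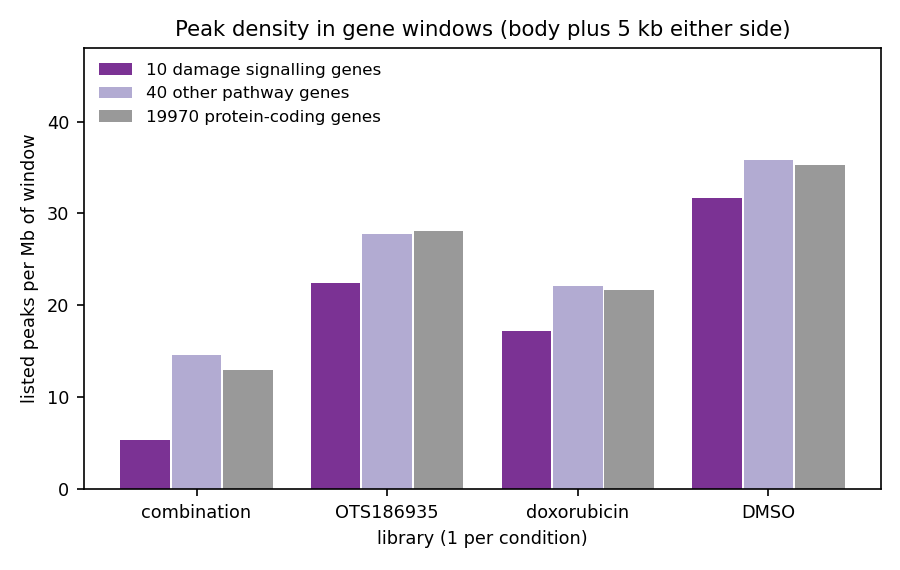
Listed peaks per Mb of window (vertical axis) in each library for the 10 damage signalling genes, 40 other genes of the pathway and all 19970 protein-coding genes. In these uncut lists the 10 genes sit lowest in each library, at 5.28 peaks per Mb with the combination and 31.7 per Mb with DMSO.

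These peaks rest on few fragments, and the authors' fold enrichment over local background ranks peaks only within a list. The number of fragments stacked at each summit, the pileup, was solved from the authors' fold enrichment and −log10 p, and ranged from 3 to 16 with a median of 6 over the 58 peaks. Its median was 6 with the combination, 6 with OTS186935, 6 with doxorubicin and 7 with DMSO, where the medians over all peaks of those lists were 7, 7, 7 and 8. At the commonest background, the lowest pileup that was listed was 4 fragments with the combination and 3 in each other library. A gene without a peak may therefore hold fragments that the caller did not list, and more of them where the local background is higher. At the H2AX peaks the solved background was 1.23 with OTS186935, 1.09 with doxorubicin and 1.46 with DMSO. The commonest background, in fragments per position, was 0.428 with the combination, 0.397 with OTS186935, 0.389 with doxorubicin and 0.454 with DMSO. The number of reads and the calling options are not given, so this value could not be tied to depth. The 95% intervals given with pileups below are exact Poisson intervals and cover counting error only.

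H2AX, the gene of the marked histone itself, lies on chromosome 11 from 119093874 to 119095465 on the minus strand. It had 0 peaks with the combination and 1 peak in each other library. With OTS186935 the peak ran from 119094360 to 119095085, with a fold enrichment of 4.93, a −log10 q of 4.18 and a pileup of 10 (95% interval 4.80 to 18.4). With doxorubicin it ran from 119094433 to 119095038, with a fold of 4.30, a −log10 q of 2.81 and a pileup of 8 (3.45 to 15.8). With DMSO it ran from 119094604 to 119095352, with a fold of 4.07, a −log10 q of 3.10 and a pileup of 9 (4.12 to 17.1). These 3 peaks overlapped, with summits 501, 790 and 621 bp inside the gene from its 5′ end. The intervals of their pileups overlap, and a difference was not tested. With the combination the nearest listed peak lay 20.5 kb from the gene. The annotated extent of DPAGT1, an enzyme gene of protein glycosylation, covers H2AX, so each of these peaks lies in the extents of both genes.

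No listed peak overlapped the start of any of these genes, and most such starts over all genes were without a peak in each library. Windows from 250 bases before to 50 bases after the gene start were available for all 10 genes, 13 windows in all with alternative starts of ATM and CHEK1. None was overlapped in any library. Of 22131 such windows over protein-coding genes, 5.13% were overlapped with the combination, 9.97% with OTS186935, 6.84% with doxorubicin and 14.5% with DMSO. The alternative windows of ATM overlap each other, as do those of CHEK1. With 13 windows and such low shares, the lack of overlaps does not set these genes apart. The closest approach was at H2AX with DMSO, where the peak ended 64 bp short of the window. Of the 58 summits, 51 lay in gene bodies, 5 downstream of the 3′ end and 2 upstream of the 5′ end. Gene bodies also make up most of the joint length of these windows, so this split shows no preference for them. Whether summits lay in exons or introns was not analysed here.

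ATM encodes the kinase that responds to DNA breaks and lies on chromosome 11 from 108223067 to 108369102. It had 0 peaks with the combination, 0 with OTS186935, 1 with doxorubicin and 3 with DMSO. The doxorubicin peak had a fold of 3.60 and a pileup of 4 (1.09 to 10.2), at 37.7 kb from the 5′ end. It overlapped a DMSO peak with a fold of 4.13 and a pileup of 5 (1.62 to 11.7), at 37.6 kb. The other DMSO peaks lay at 54.5 and 59.2 kb with the same pileup of 5. These pileups are 1 or 2 fragments above the lowest that was listed in their own libraries.

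ATR, the kinase called by RPA-coated DNA, lies on chromosome 3 from 142449235 to 142578733 on the minus strand. It was 1 of 2 genes with a peak in every library, with 1 peak with the combination, 2 with OTS186935, 3 with doxorubicin and 4 with DMSO. A region about 10 kb inside the gene from its 5′ end, 142568419 to 142569228, was listed in all 4. The combination peak there had a fold of 6.16, a −log10 q of 5.25 and a pileup of 11 (5.49 to 19.7). With OTS186935 the fold was 6.08, the −log10 q 5.61 and the pileup 10 (4.80 to 18.4). With doxorubicin the fold was 7.48, the −log10 q 8.64 and the pileup 16 (9.15 to 26.0). With DMSO the fold was 4.92, the −log10 q 3.99 and the pileup 8 (3.45 to 15.8).

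At this region the pileup was highest with doxorubicin and lowest with DMSO, and the intervals of all 4 libraries overlap. Toward the 3′ end the order of presence was otherwise. At 124 kb from the 5′ end ATR had a pileup of 3 with OTS186935, 6 with doxorubicin and 6 with DMSO. At 91.7 kb it had 5 with doxorubicin and 8 with DMSO, and at 64.3 kb it had 7 with DMSO alone. None of these regions had a listed peak with the combination.

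MDC1, the reader that binds γH2AX directly, lies on chromosome 6 from 30699807 to 30717281 on the minus strand. It had 0 peaks with the combination, 0 with OTS186935, 0 with doxorubicin and 1 with DMSO. That peak lay 3783 bp upstream of the gene, with a fold of 5.38, a −log10 q of 4.93 and a pileup of 10 (4.80 to 18.4). It falls inside TUBB, which encodes a tubulin, so the body of MDC1 had no peak in any library.

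TP53BP1 encodes 53BP1, which favours joining of broken ends, and lies on chromosome 15 from 43403061 to 43510640 on the minus strand. It had 0 peaks with the combination, 5 with OTS186935, 1 with doxorubicin and 5 with DMSO. At 3 places an OTS186935 peak overlapped a DMSO peak. At 15.1 kb from the 5′ end the pileup was 6 with OTS186935 and 7 with DMSO, at 36.2 kb 6 and 7, and at 84.7 kb 4 and 9 in that order. The doxorubicin peak lay at 89.5 kb, with a fold of 5.07 and a pileup of 7 (2.81 to 14.4). It overlapped an OTS186935 peak with a fold of 7.12, a −log10 q of 6.95 and a pileup of 9 (4.12 to 17.1), and no DMSO peak. The region of the strongest OTS186935 peak at TP53BP1 was therefore listed with each single drug and not with DMSO, and the strongest DMSO peak, with a fold of 6.61 at 84.7 kb, was not listed with doxorubicin. With the combination the nearest peak to the gene lay 17.3 kb away.

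RNF8, the first ubiquitin ligase of the pathway, lies on chromosome 6 from 37353983 to 37394734. It had 1 peak with the combination, 1 with OTS186935, 0 with doxorubicin and 0 with DMSO. With the combination the summit lay 835 bp upstream of the 5′ end, with a fold of 3.57, a −log10 q of 1.66 and a pileup of 5 (1.62 to 11.7). With OTS186935 it lay 26.6 kb inside the gene, with a fold of 4.38, a −log10 q of 2.93 and a pileup of 6 (2.2 to 13.1). Each library that received OTS186935 had a peak at RNF8, but the peaks lay at different places. Of all genes, 50.5% had a peak in the window with the combination and 71.7% with OTS186935.

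RNF168, which spreads ubiquitin on histone H2A, lies on chromosome 3 from 196468783 to 196503768 on the minus strand. It had 2 peaks with the combination, 4 with OTS186935, 4 with doxorubicin and 3 with DMSO, and was the other gene with a peak in every library. Per Mb of window this was 44.5, 88.9, 88.9 and 66.7 peaks, above the density over all genes in each library. A region just past its 3′ end, 196465903 to 196467515, was joined from 5 peaks of all 4 libraries. The combination peak there had a fold of 3.45 and a pileup of 5 (1.62 to 11.7). With OTS186935 the fold was 6.06 and the pileup 8 (3.45 to 15.8). With doxorubicin the stronger of its 2 peaks had a fold of 6.22 and a pileup of 10 (4.80 to 18.4). With DMSO the fold was 7.68, the −log10 q 8.22 and the pileup 11 (5.49 to 19.7).

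Within that region the summits were not in 1 place. The stronger doxorubicin summit and the DMSO summit lay 1.54 and 1.56 kb past the 3′ end. The combination summit lay 2.23 kb past it, the OTS186935 summit 2.56 kb and the weaker doxorubicin summit 2.75 kb. Toward the 5′ end of RNF168, a region at 2.76 kb had a pileup of 5 with OTS186935 and 8 with doxorubicin, and another at 12.4 kb had 3 and 4. Neither region was listed with the combination or with DMSO. At 24.2 kb the gene had a pileup of 7 with the combination and 4 with DMSO.

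RPA1 lies on chromosome 17 from 1830005 to 1900082. It had 0 peaks with the combination, 2 with OTS186935, 3 with doxorubicin and 4 with DMSO. At 68.5 kb from the 5′ end, near the end of the gene, the pileup was 11 with OTS186935, 8 with doxorubicin and 9 with DMSO, with folds of 6.19, 4.66 and 5.23. At 60.4 kb it was 6 in each of these libraries. DMSO alone had a peak at 42.5 kb, the highest by fold of its 24, with a fold of 7.93, a −log10 q of 8.61 and a pileup of 11 (5.49 to 19.7). Doxorubicin alone had a peak at 1.79 kb, with a pileup of 5 (1.62 to 11.7). With the combination the nearest peak lay 17.1 kb from the gene.

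**Figure D3:**
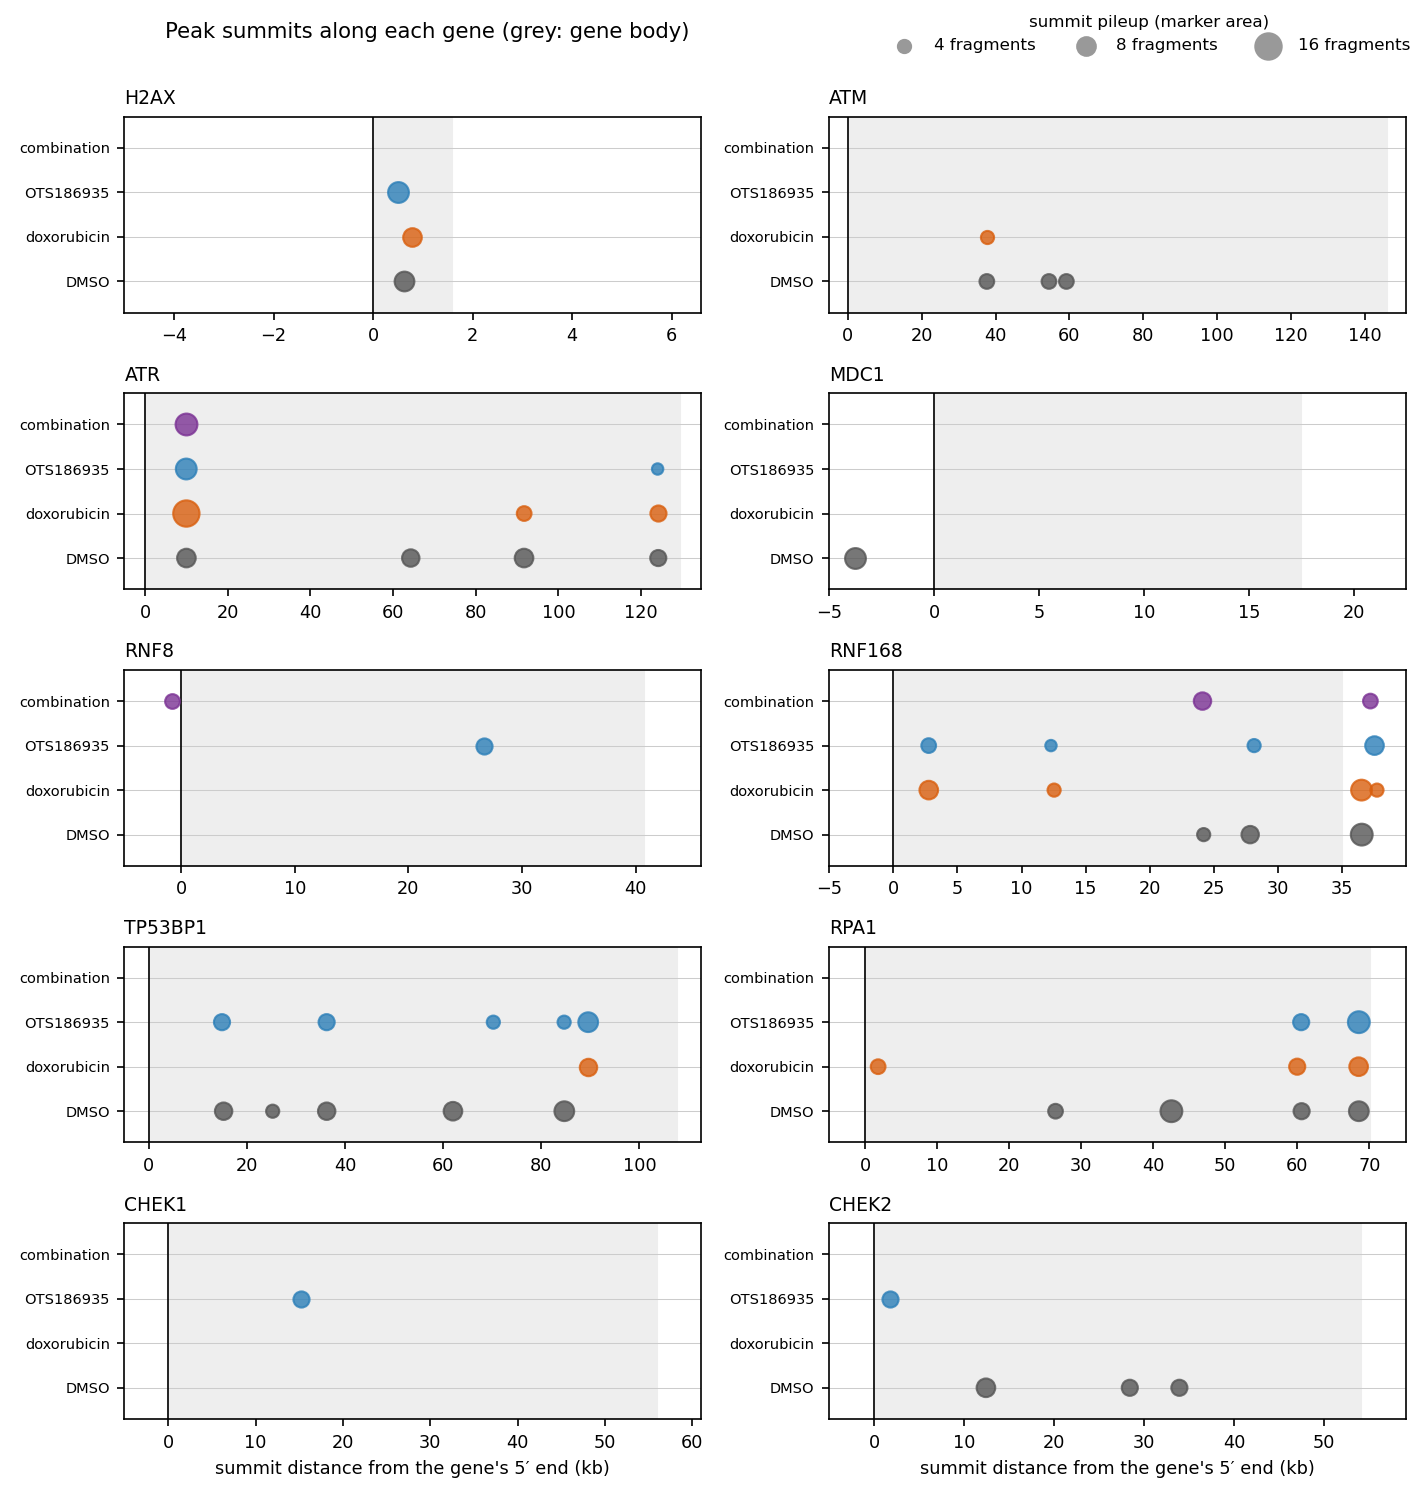
Position of each peak summit along the 10 genes, as distance from the 5′ end in kb (horizontal axis; grey is the gene body), with 1 line per library and marker area set by the summit pileup. The region about 10 kb inside ATR and the region just past the 3′ end of RNF168 carry a peak in all 4 libraries, and TP53BP1, RPA1 and H2AX carry peaks in each library but the combination.

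The effector kinase genes CHEK1 and CHEK2 differed in which libraries held their peaks. CHEK1, on chromosome 11 from 125625136 to 125681124, had 1 peak with OTS186935, with a fold of 5.01 and a pileup of 6 (2.2 to 13.1), and 0 in each other library. CHEK2, on chromosome 22 from 28687742 to 28741834, had 0 peaks with the combination, 1 with OTS186935, 0 with doxorubicin and 3 with DMSO. Its OTS186935 peak lay 1.72 kb inside the gene from the 5′ end with a pileup of 6. Its DMSO peaks lay at 12.4, 28.4 and 33.9 kb with pileups of 8, 6 and 6, so no CHEK2 peak was shared. The gene table lists 6 pseudogenes of CHEK2, and reads of the gene could be placed among such copies. Whether this touched its peaks was not tested.

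The 58 peaks joined into 33 regions, of which 17 were listed in 1 library, 10 in 2, 4 in 3 and 2 in all 4. Listed in all 4 were 6.06% of these regions, against 7.01% of 77788 regions joined in the windows of all genes. Of the 33, 24 held a DMSO peak, and 13 of those 24 were listed in at least 1 treated library as well. The same count was not made over all genes, so it does not set these regions apart. Regions listed in a single library made up 51.5% of the 33, against 58.5% over all genes. They numbered 1 with the combination (3.03% of the 33, against 6.0% over all genes), 4 with OTS186935 (12.1%, against 16.3%), 1 with doxorubicin (3.03%, against 11.9%) and 11 with DMSO (33.3%, against 24.2%).

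For OTS186935 against DMSO, the question was where γH2AX lay at these genes under the SUV39H2 inhibitor. Of 24 DMSO peaks, 10 were overlapped by an OTS186935 peak, 41.7% (exact 95% binomial interval 22.1 to 63.4), against 44% of DMSO peaks in the windows of all genes. RNF8 and CHEK1 had a peak with OTS186935 and not with DMSO, 2 of 10 against 5.4% of all genes. For CHEK1 this depends on the window, since the nearest DMSO peak lay 6.93 kb from its body, just outside the 5 kb flank. With 10 kb either side, 9 of 10 genes had a DMSO peak, and RNF8 alone had none, its nearest lying 31.3 kb away. ATM and MDC1 had a peak with DMSO and not with OTS186935, 2 of 10 against 11.9%.

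Doxorubicin against DMSO showed these genes under a topoisomerase II poison. A doxorubicin peak overlapped 8 of 24 DMSO peaks, 33.3% (15.6 to 55.3), against 34.5% over all gene windows. No gene had a peak with doxorubicin and not with DMSO, where 4.65% of all genes did. MDC1 and CHEK2 had 1 with DMSO and not with doxorubicin, 2 of 10 against 17.8%. For each single drug, then, the share of DMSO peaks kept was close to that over all genes.

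For the combination against DMSO, which shares the DMSO library with both comparisons above, 3 of 24 DMSO peaks were overlapped, 12.5% (2.66 to 32.4), against 22.6% over all gene windows. These 3 were the ATR region and a pair of regions at RNF168. H2AX, ATM, MDC1, TP53BP1, RPA1 and CHEK2 had a peak with DMSO and not with the combination, 6 of 10 against 30.3% of all genes. RNF8 showed the reverse, 1 of 10 against 2.58%. The interval includes the share over all genes.

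Adding OTS186935 to doxorubicin was read from the combination against doxorubicin alone. Every comparison with the combination rests on the same combination library, so their low shares are not separate results. A combination peak overlapped 2 of 13 doxorubicin peaks, 15.4% (1.92 to 45.4), against 26.5% over all gene windows. H2AX, ATM, TP53BP1 and RPA1 had a peak with doxorubicin and not with the combination, 4 of 10 against 22.1% of all genes, and RNF8 the reverse, 1 of 10 against 7.48%. The combination against OTS186935 alone gave 2 of 17 OTS186935 peaks overlapped, 11.8% (1.46 to 36.4), against 24.8%. H2AX, CHEK1, CHEK2, TP53BP1 and RPA1 had a peak with OTS186935 and not with the combination, 5 of 10 against 25.9%, and no gene the reverse, against 4.69%.

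**Figure D4:**
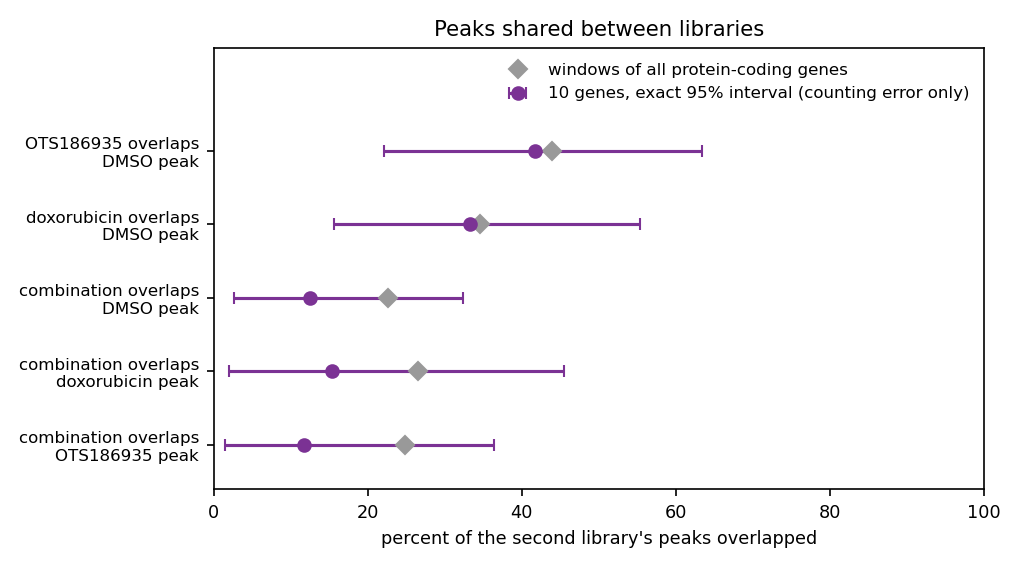
Percent of peaks of the second-named library that were overlapped by a peak of the first-named library, for the windows of the 10 genes (circles with exact 95% binomial intervals, which cover counting error only) and of all protein-coding genes (diamonds). Shares with the combination, which all rest on the same combination library, lie between 11.8% and 15.4% at the 10 genes. Each interval includes the diamond.

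Another 40 genes of the same pathway, such as adaptors, partners of the kinases, readers and phosphatases, were described for context. Of these, 24 had a peak with the combination, 33 with OTS186935, 26 with doxorubicin and 33 with DMSO. Their density was 14.6 peaks per Mb with the combination, 27.8 with OTS186935, 22.1 with doxorubicin and 35.8 with DMSO, close to that over all genes in each library. Their difference from the 10 genes was not tested. The highest folds with the combination were at RNF169, a relative of RNF168, with 6.30, and CDC25C, the phosphatase that CHEK1 and CHEK2 act on, with 5.96. With OTS186935 they were at MCPH1, a reader of γH2AX, with 9.0 and RNF169 with 7.28. With doxorubicin they were at CDC25C with 8.48 and RNF169 with 8.15. With DMSO they were at BRCC3, a deubiquitinase, with 9.41 and SHLD1, a partner of 53BP1, with 8.77. SHLD1 had no peak with the combination.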

How the data were processed

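The data were 1 list of γH2AX peaks for each condition. Tools in the submitters' processing notes are MACS2 2.2.7.1, bedtools 2.30.0, Bowtie2 2.4.2 and Picard 2.25.3, with hg38 as the build, and their roles are not stated. For read filters, calling options and an input library, nothing is given in the sources used here. The fold enrichment (a ratio), the −log10 p, the −log10 q and the score were deposited by the authors for each listed summit; the lowest −log10 q was 1.0 in each list. The number of reads is not given.

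The members and lists were chosen with earlier results of these data known. All 10 members and, per library, the 2 other pathway genes of highest fold are named, with neighbours that a peak overlaps. A peak counted when it overlapped a window by at least 1 bp. Gene extents, strands and start windows came from RefSeq tables of the same assembly, without exons. Pileup n and background b were solved from fold (n + 1 over b + 1) and a Poisson p; a pileup was unique for every peak of the 10 genes within 0.002 of the −log10 p. Merged and unmerged peaks were the same in number at these genes. Shares carry exact Clopper-Pearson 95% intervals. The overlaps were tested on simulated intervals. Pileup solving was tested on values simulated by the same formulas, which checks the solving alone and not whether the formulas hold for the deposited values. Over the whole lists, 1402 peaks with the combination, 2108 with OTS186935, 422 with doxorubicin and 575 with DMSO had a second matching pileup. Python 3.11.15, numpy 2.4.6, scipy 1.17.1 and pandas 2.3.3 were used.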

Additional observations from a re-analysis of the deposited data

Results flagged for a closer look

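RNF168 was picked out because the number of its peaks moved in opposite ways when a drug was given alone and when it was added to the other. It had 1 more peak with OTS186935 than with DMSO, while the difference between the combination and doxorubicin was -2 peaks. It also had 1 more peak with doxorubicin than with DMSO, and the difference between the combination and OTS186935 was -2 peaks. This second pair of differences comes from the same counts as the first and is not a separate observation. The combination list was the shortest, with 29561 peaks against 61928 with OTS186935 and 48522 with doxorubicin. Fewer peaks with the combination than with either single drug were thus also seen over all genes. These differences were not tested, since each condition had 1 library. The extra doxorubicin peak counts a second summit in the region past the 3′ end.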

How the results depend on the processing

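Of 100 values recomputed under other settings, 86 stayed within 1.5 times the main count or inside the main interval of a share. This is not a measure of stability. The combination's own counts could not change in lists of equal length or at the common lowest −log10 p, both set by its list. The main intervals were also wide, as from 1.46% to 36.4% for OTS186935 peaks overlapped by the combination. With a −log10 q of 5 or more, peaks numbered 1 with the combination, 4 with OTS186935, 2 with doxorubicin and 4 with DMSO, at 1, 4, 2 and 4 genes; 0 of 4 DMSO peaks (0%) and 1 of 2 doxorubicin peaks (50%) were then overlapped by the combination. Gene bodies without flanks left 2 combination peaks. Lists of equal length left 9 OTS186935 peaks, and 11 DMSO peaks at 5 genes. Windows of 10 kb, summits inside the window, a reciprocal overlap of 50%, peaks over no other gene, and a common lowest −log10 p of 3.08, the last chosen after seeing the data, moved no value beyond those limits. No paired analysis was possible because each condition had 1 library. Pileups of 3 to 16 fragments limit every statement about a missing peak.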
